A study of Mus musculus with 6 samples.

Results

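The 41 genes described here encode RhoA and related small GTPases, their regulators and kinases, the myosin phosphatase, non-muscle myosin II and the proteins that build, cut and branch actin filaments. They were taken by symbol from a list, and all 41 were among the 12389 genes measured and among the 12363 that passed a filter on low values (at least 10 scaled reads in 3 or more libraries). Messenger RNA came from 6 cultures of primary aortic smooth muscle cells grown from explants of mouse thoracic aorta. Of these, 3 came from mice with a smooth muscle-specific knockout of LRRC8A (KO), which every volume-regulated anion channel needs as a subunit, and 3 from wild-type mice (WT). All 6 were untreated and at passage 6 or below, and the design text calls them independent biological replicates. As all 6 carry Wild Type in their genotype field, the groups follow the sample titles. The promoter that drove the deletion and the age and sex of the mice are not given in the labels.

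RhoA switches between a GTP-bound active form and a GDP-bound inactive form. Exchange factors load GTP, GTPase activating proteins (GAPs) speed its hydrolysis, and dissociation inhibitors (GDIs) hold the inactive form in the cytosol. Active RhoA turns on the ROCK kinases, which phosphorylate the targeting subunit of myosin phosphatase and so keep myosin light chain phosphorylated, and the diaphanous formins, which elongate actin filaments. In arterial smooth muscle this pathway sets the calcium sensitivity of contraction, and in cultured cells it sets stress fibres and cell shape.

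Values are scaled reads, that is, estimated reads divided by a library factor, and the estimated depth was 31.0 to 47.9 M reads per library. Replicate 3 was the deepest of each group, at 47.9 M in KO and 45.4 M in WT, against 31.0 to 35.9 M elsewhere. The part of depth in values that set replicate 3 apart was not tested. Lrrc8a had 868, 672 and 506 scaled reads in KO replicates 1 to 3 and 2578, 2194 and 1221 in WT replicates 1 to 3. The groups did not overlap, and the direction follows the titles. In limma the log2 fold change of Lrrc8a (KO over WT) was -1.51 (SE 0.34), with an unadjusted p of 0.0029. Its adjusted p in limma was 0.999, so the targeted gene itself did not pass the threshold of 0.05 used for the members. Smooth muscle markers were present but uneven: the 7 analysed of 10 listed summed to 31567, 32575 and 106114 in KO replicates 1 to 3 and 16629, 25353 and 205292 in WT replicates 1 to 3. Acta2 and Tagln, a smooth muscle actin and an actin-binding protein, were the highest of them. The defining marker Myh11 had 41.7, 20.8 and 96.8 in KO replicates 1 to 3 and 90.1, 152 and 1656 in WT replicates 1 to 3. Fibroblast markers, 5 analysed of 6, summed to 16870 to 40166 in KO and 18011 to 31215 in WT. Dcn and Dpt were the highest on average over the 6 libraries, but the list did not move together. In KO replicate 3 Dcn (1362) and Dpt (305) had their lowest values, and Pdgfra, at 15182, held most of the sum of 16870. In bulk RNA, fewer cells of a type and less RNA per cell cannot be told apart.

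The set as a whole lay close to 0. No member passed an adjusted p of 0.05 in limma, where 0% of all tested genes passed, and 1 member, Evl, had an unadjusted p under 0.05 against 3.62% of all tested genes (447 of 12363). The 41 members had a median log2 fold change (KO over WT) of 0.07, with 25 above 0 and 16 below, and all tested genes had a median of 0.00. The median size of the log2 fold change, sign ignored, was 0.21 for the members and 0.21 for all tested genes. In the authors' deposited table no member was under an FDR of 0.05, where 0.525% of all genes were, and in the authors' deposited table the smallest FDR of a member was 0.259, for Evl.

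The precision allows a bound for most of them. For 28 of the 41 members the 95% interval of the log2 fold change lay between -1 and 1, which is inside a 2-fold change either way, and 56.5% of all tested genes had such an interval. These 28 include Rhoa, Rhoc, Cdc42, Rock1, Ppp1r12a, Ppp1cb, Myh9, Msn and all 5 exchange factors. The other 13, among them Rhob, Rnd3, Rock2, Diaph3, Enah, Evl and Ezr, have intervals that reach past a 2-fold change. With the replicate block 33 members had an interval inside these bounds, against 69.7% of all tested genes. The 5 that moved inside were Arhgdib, Rock2, Diaph3, Ppp1r14b and Cfl1, and the interval of Diaph3 narrowed to -0.20 to 0.86 with the block, against -1.52 to 2.18 without it.

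**Figure D1:**
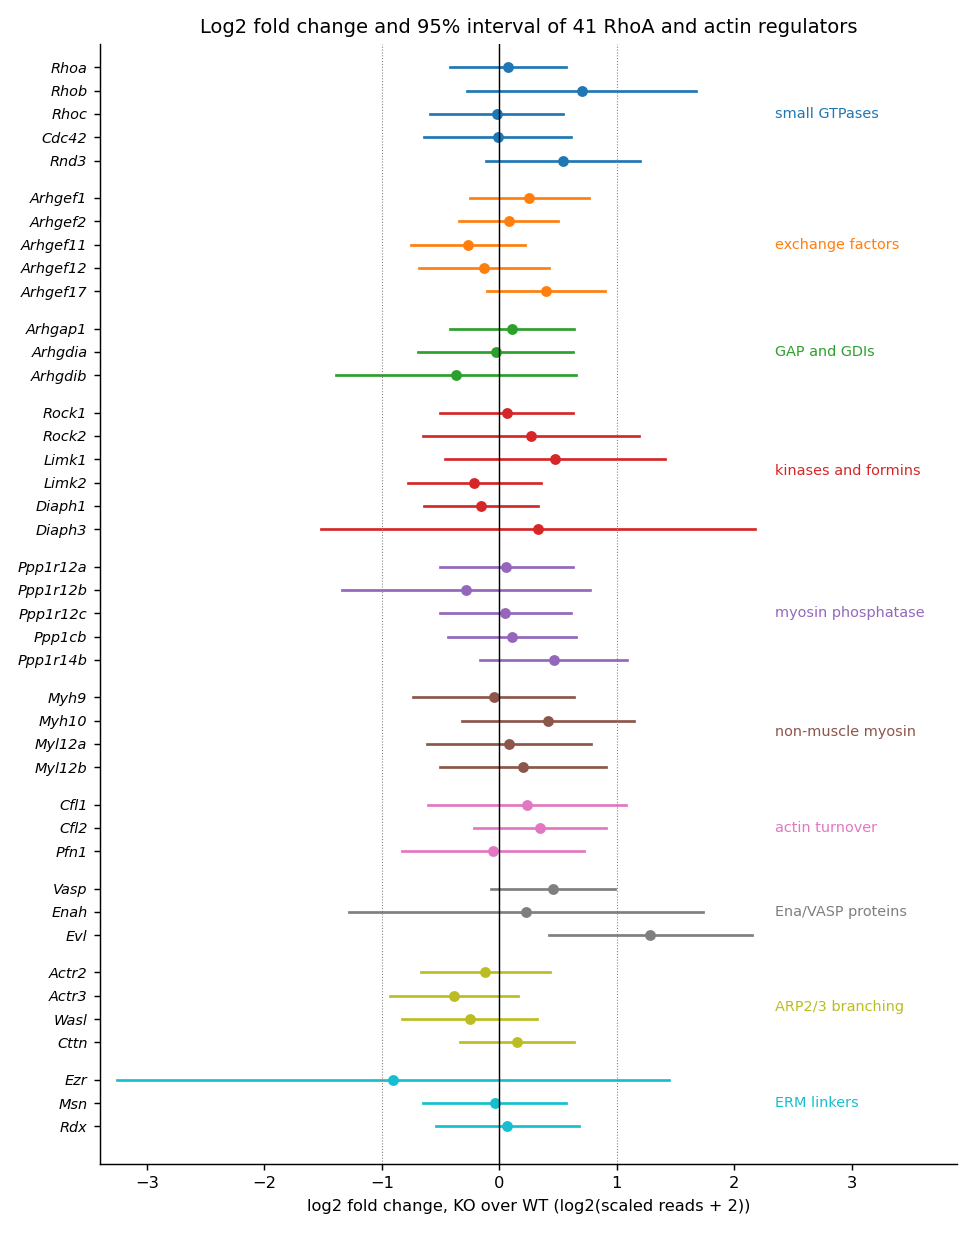
Log2 fold changes of the 41 members (KO over WT, on log2(scaled reads + 2)) by role, with points for the limma estimate from 3 KO and 3 WT libraries and bars for its 95% interval. The interval of Evl (0.42 to 2.15) is the one that does not cross 0, that of Ezr (-3.25 to 1.44) is the widest, and dotted lines mark a 2-fold change either way.

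Evl was the one member whose groups did not overlap. EVL belongs with VASP and ENAH (Mena) to the Ena/VASP proteins, which bind the growing ends of actin filaments and speed their elongation. Evl (ENSMUSG00000021262) lies on chromosome 12 of GRCm38, from 108554720 to 108688516. It had 595, 834 and 959 scaled reads in KO replicates 1 to 3 and 193, 414 and 406 in WT replicates 1 to 3. Exons of Degs2 on the other strand overlap Evl, and the use of strand in counting is not given. Every KO library was above every WT library, and KO was the higher of each same-numbered pair. Group values were 796 ± 185 in KO and 338 ± 125 in WT (SD, n = 3 each). Its log2 fold change was 1.28 (SE 0.37).

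For Evl the adjusted p in limma was 0.999, with an unadjusted p of 0.0096, so it did not pass. With the replicate block limma gave Evl an SE of 0.22, an unadjusted p of 0.0012 and an adjusted p of 0.308. The exact two-sided permutation test gave p = 0.1, the smallest that 3 libraries against 3 allow. All KO libraries lay above all WT libraries for 1 of 41 members and for 3.91% of tested genes, and all KO below all WT for 0 members and 4.51% of tested genes. Leukocyte markers, 3 analysed of 8, summed to 392, 870 and 1197 in KO replicates 1 to 3 and 1324, 1233 and 1594 in WT replicates 1 to 3. The sum was lower in KO in each pair. Within KO it had the same order as Evl, but within WT it was lowest in replicate 2 and Evl in replicate 1. The sum of the cycling-cell markers, given below with Diaph3, also had the order of Evl within KO. The highest leukocyte markers were Csf1r and Lyz2. In pair 3 Csf1r (899 in KO, 858 in WT) and Cd68 (58.4 in KO, 42.7 in WT) were higher in KO. Of 8 endothelial markers Kdr alone was analysed, at 105, 423 and 21.3 in KO replicates 1 to 3 and 433, 141 and 42.7 in WT replicates 1 to 3. The part of these cell types, or of cycling cells, in the Evl values was not tested.

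Vasp and Enah did not share this pattern. Vasp had 3205, 2490 and 2027 in KO replicates 1 to 3 and 1753, 1745 and 2051 in WT replicates 1 to 3. KO replicates 1 and 2 were above all WT libraries and KO replicate 3 was not, and the log2 fold change was 0.45 (SE 0.22). Enah had 756, 1719 and 3955 in KO replicates 1 to 3 and 1055, 2453 and 1234 in WT replicates 1 to 3. Its highest and lowest libraries were both KO, and its log2 fold change was 0.23 (SE 0.63).

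Per kilobase of exon, Evl made up 13.8%, 21.6% and 25.4% of the summed Ena/VASP level in KO replicates 1 to 3 and 8.37%, 15.3% and 14.1% in WT replicates 1 to 3. These shares overlapped, as KO replicate 1 was below WT replicates 2 and 3, and the exact permutation p was 0.3 (0.867 after adjustment over the 26 shares of 11 families). By this measure Vasp was the largest of the 3 in each library, at 60.3% to 83.8% in KO and 72.3% to 85.4% in WT. These shares depend on the summed length of annotated exons, 21452 bases for Enah against 2617 for Vasp. Before division by length, Enah was above Vasp in KO replicate 3 (3955 against 2027) and WT replicate 2 (2453 against 1745).

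**Figure D2:**
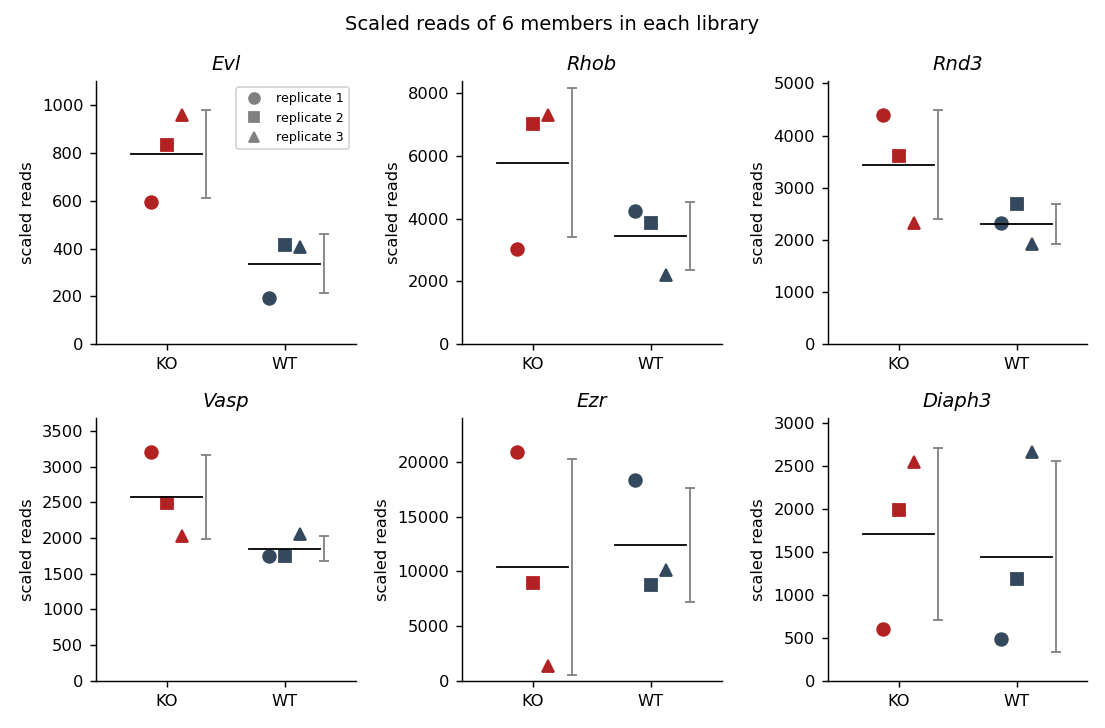
Scaled reads of Evl, Rhob, Rnd3, Vasp, Ezr and Diaph3 in each library, KO left and WT right, with marker shapes for the replicate number, black lines for group means and grey bars for the SD (n = 3 each). Evl is the panel with no overlap (595 to 959 in KO, 193 to 414 in WT), and Ezr has 1 low library, KO replicate 3 at 1322.

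The promoters of the 3 members with the smallest p (Evl, Vasp and Rnd3) and of Rhob, which had the next largest positive log2 fold change after Evl, are shown for their sequence context. Each is the 250 bases before the transcription start from RefSeq (GRCm38.p6), written 5′ to 3′ on the strand of the gene. The table held 37 of the 41 members with 52 starts, and of the 2 starts listed for Evl the one at the annotated gene start is given. Capitals mark matches on either strand to the CArG box (the site of serum response factor), GGAATG (the core site of TEAD factors), CCAAT (the site of NF-Y), GGGCGG (the core site of Sp1) and TGACGTCA (the cyclic AMP response element).
Evl, chr12:108554470-108554719, plus strand: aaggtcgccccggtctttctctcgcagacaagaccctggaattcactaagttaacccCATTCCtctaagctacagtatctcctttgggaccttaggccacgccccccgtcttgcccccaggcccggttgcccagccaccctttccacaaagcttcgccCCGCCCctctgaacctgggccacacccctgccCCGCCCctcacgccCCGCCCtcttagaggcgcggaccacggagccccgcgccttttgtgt
Rhob, chr12:8500010-8500259, minus strand: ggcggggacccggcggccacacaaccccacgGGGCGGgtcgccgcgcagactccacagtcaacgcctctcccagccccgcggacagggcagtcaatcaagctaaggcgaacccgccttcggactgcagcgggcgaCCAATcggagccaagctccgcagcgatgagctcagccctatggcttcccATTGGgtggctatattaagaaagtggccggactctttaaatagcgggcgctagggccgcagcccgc
Rnd3, chr2:51149112-51149361, minus strand: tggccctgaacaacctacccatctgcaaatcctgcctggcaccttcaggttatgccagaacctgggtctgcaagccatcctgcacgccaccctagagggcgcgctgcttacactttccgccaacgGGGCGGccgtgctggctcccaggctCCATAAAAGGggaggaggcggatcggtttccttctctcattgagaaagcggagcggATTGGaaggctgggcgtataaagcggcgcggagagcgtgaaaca
Vasp, chr7:19271855-19272104, minus strand: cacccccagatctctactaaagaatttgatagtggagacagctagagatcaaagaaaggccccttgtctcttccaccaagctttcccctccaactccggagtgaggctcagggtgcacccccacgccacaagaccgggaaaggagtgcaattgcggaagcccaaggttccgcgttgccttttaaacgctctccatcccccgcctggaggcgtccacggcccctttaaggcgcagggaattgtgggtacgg

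Rnd3 held the only CArG box among the 52 member promoters, a share of 1.92% against 1.13% of the 11590 promoters of tested genes. The Evl start shown held 1 GGAATG and 3 GGGCGG matches, and its other listed start held 1 GGAATG and 0 GGGCGG. Rhob held 2 CCAAT and 1 GGGCGG, Rnd3 also 1 CCAAT and 1 GGGCGG, and Vasp none of the 5 motifs. Over all member promoters GGAATG was present in 17.3% (10.6% for tested genes), CCAAT in 25.0% (35.7%), GGGCGG in 65.4% (59.1%) and TGACGTCA in 1.92% (2.60%). A match is a description of the letters, and promoter activity was not measured.

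Among the small GTPases, Rhoa, the head of the pathway, was even across the 6 libraries. It had 14371, 16034 and 13799 scaled reads in KO replicates 1 to 3 and 12208, 13981 and 16022 in WT replicates 1 to 3, a log2 fold change of 0.07 (SE 0.21). Rhoc, a close relative linked to cell migration, had -0.02 (SE 0.24), and Cdc42, which drives filopodia, had -0.01 (SE 0.27). For both, the 3 KO libraries lay closer together than the 3 WT libraries, with 5237 ± 255 in KO and 5453 ± 1515 in WT for Rhoc and 8739 ± 364 in KO and 9108 ± 2740 in WT for Cdc42 (SD, n = 3 each). An exon of Tcta on the other strand shares bases with Rhoa, so its reads are uncertain to that extent.

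Rhob and Rnd3 were the GTPases with the larger differences. RHOB sits on endosomes and its transcript is short-lived and induced by growth factors and stress. Rhob (chromosome 12, 8497661 to 8500009) had 3043, 7019 and 7290 in KO replicates 1 to 3 and 4249, 3855 and 2219 in WT replicates 1 to 3. KO replicates 2 and 3 were above all WT libraries and KO replicate 1 was below 2 of them, and the log2 fold change of 0.70 (SE 0.41) did not pass in limma (adjusted p 0.999). Leaving out 1 library in turn gave Rhob values of 0.41 (without WT replicate 3) to 1.11 (without KO replicate 1).

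RND3, also called RhoE, is a GTPase with no GTP hydrolysis of its own that opposes RhoA and binds ROCK1. Rnd3 (chromosome 2, 51130438 to 51149111) had 4388, 3615 and 2326 in KO replicates 1 to 3 and 2315, 2685 and 1925 in WT replicates 1 to 3. KO was the higher of all 3 same-numbered pairs, but KO replicate 3 was below WT replicate 2. The log2 fold change was 0.54 (SE 0.28), with an unadjusted p of 0.093 in limma and of 0.034 with the replicate block (SE 0.20, adjusted p 0.637). With the block 2 members, Evl and Rnd3, were under an unadjusted p of 0.05, against 7.42% of all tested genes, and 0 members passed the adjusted p with 0% of all genes. Rhoa, Rhob and Rhoc made up 26.0%, 31.2% and 42.8% of their summed per-kilobase level in KO and 27.9%, 22.5% and 49.6% in WT, on average over 3 libraries. The Rhob share ran from 20.6% to 37.3% in KO and from 12.6% to 30.2% in WT (exact permutation p = 0.3).

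**Figure D3:**
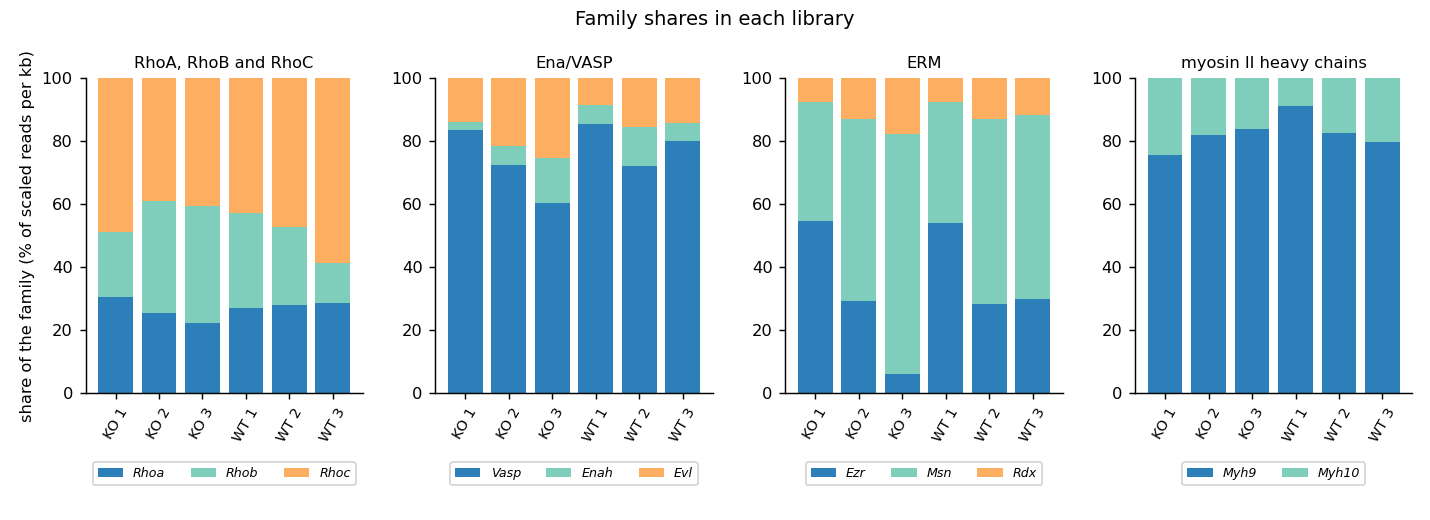
Share of each member in the summed scaled reads per kilobase of its family, as stacked bars (%) for KO replicates 1 to 3 and WT replicates 1 to 3. Replicate 1 of KO and of WT share a high Ezr proportion (54.7% and 54.1%), KO replicate 3 has the lowest (5.89%), and Myh9 holds 75.6% to 91.1% of the myosin heavy chain level in each library.

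The 5 exchange factors all had intervals inside a 2-fold change either way, with SEs of 0.18 to 0.23. Arhgef1, Arhgef11 and Arhgef12 encode the factors that couple G12 and G13 protein receptors to RhoA (p115-RhoGEF, PDZ-RhoGEF and LARG). Their log2 fold changes were 0.26 (SE 0.21), -0.27 (SE 0.21) and -0.13 (SE 0.23). Arhgef2, a factor released from microtubules (GEF-H1), had 3564, 4299 and 4267 in KO replicates 1 to 3 and 3794, 4006 and 3652 in WT replicates 1 to 3. Its 6 libraries spanned the narrowest range of any member, the highest being 1.21 times the lowest. Arhgef17 had 5864, 5187 and 7082 in KO replicates 1 to 3 and 4097, 4264 and 5389 in WT replicates 1 to 3, higher in KO in each same-numbered pair. The KO and WT libraries of Arhgef17 overlapped by 1 library, and its log2 fold change was 0.40 (SE 0.21).

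Of the brakes on the pathway, Arhgap1, a GAP for Cdc42 and RhoA, had a log2 fold change of 0.11 (SE 0.22). Arhgdia, which encodes the general GDI, had -0.03 (SE 0.28) and was the highest member per kilobase, at 10817 scaled reads per kilobase in KO and 11118 in WT. Arhgdib, the GDI best known from blood cells, had 401, 447 and 811 in KO replicates 1 to 3 and 594, 449 and 1188 in WT replicates 1 to 3. It was lower in KO in each pair, the second by less than 0.01 on the log2 scale, and its log2 fold change was -0.37 (SE 0.43). The leukocyte marker sums given beside Evl were lower in KO in each pair as well, and their part in the Arhgdib values was not tested. Arhgdib supplied 2.06% to 3.60% of the GDI level in KO and 2.97% to 4.76% in WT.

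The ROCK kinases did not differ beyond their spread. Rock1 had a log2 fold change of 0.06 (SE 0.24) and Rock2 of 0.27 (SE 0.39). Rock2 had 13775, 11170 and 5619 in KO replicates 1 to 3 and 10414, 8405 and 5654 in WT replicates 1 to 3, so replicate 3 was the lowest of each group. Per kilobase Rock2 made up 71.8% to 84.2% of the ROCK level in KO and 72.5% to 81.3% in WT. LIM kinases, which ROCK activates and which inactivate cofilin by phosphorylation, went in different directions, with Limk1 at 0.48 (SE 0.40) and Limk2 at -0.21 (SE 0.24). Limk1 had 1042, 1040 and 2745 in KO replicates 1 to 3 and 872, 1154 and 1096 in WT replicates 1 to 3, so 1 library, KO replicate 3, sets its value. Limk2 was lower in KO in all 3 pairs.

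Among the formins Diaph1 had a log2 fold change of -0.16 (SE 0.21). Diaph3, a formin also needed for cytokinesis, had 602, 1992 and 2542 in KO replicates 1 to 3 and 484, 1188 and 2662 in WT replicates 1 to 3. It was low in both replicates 1 and high in both replicates 3, and its log2 fold change was 0.33 (SE 0.77). The 6 cycling-cell markers, all analysed, summed to 2810, 13393 and 27701 in KO replicates 1 to 3 and 3103, 6567 and 15987 in WT replicates 1 to 3, in the same order as Diaph3 within each group. The highest of them were Top2a and Mki67, and none of the 6 was at 0 in any library. Their part in the Diaph3 values was not tested.

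The myosin phosphatase is a complex of a catalytic subunit, PP1 beta (Ppp1cb), and a targeting subunit, MYPT1 (Ppp1r12a) or its relatives (Ppp1r12b and Ppp1r12c). Ppp1cb had 6361, 6659 and 6048 in KO replicates 1 to 3 and 6833, 6799 and 4417 in WT replicates 1 to 3. The groups overlapped, with a log2 fold change of 0.11 (SE 0.23). Ppp1r12a had 0.06 (SE 0.24) and Ppp1r12c 0.05 (SE 0.24). Ppp1r12b, whose protein is typical of striated and smooth muscle, was uneven, at 6315, 2298 and 4742 in KO replicates 1 to 3 and 6340, 6269 and 3110 in WT replicates 1 to 3. Its log2 fold change was -0.28 (SE 0.45).

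Ppp1r14b encodes a small inhibitor of the phosphatase related to CPI-17. It had 3640, 3850 and 4182 in KO replicates 1 to 3 and 2490, 2187 and 4095 in WT replicates 1 to 3. KO was the higher of all 3 pairs, but the third pair differed by 0.03 on the log2 scale. The log2 fold change was 0.46 (SE 0.27). An exon of Plcb3 on the other strand shares bases with Ppp1r14b, so its reads are uncertain to that extent. Leaving out 1 library in turn gave Ppp1r14b values of 0.28 (without WT replicate 2) to 0.73 (without WT replicate 3), and no adjusted p in limma passed.

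Non-muscle myosin II, the motor of stress fibres, was led by Myh9, with 76585, 72829 and 102464 scaled reads in KO replicates 1 to 3 and 107318, 72495 and 81506 in WT replicates 1 to 3. Its highest value was in WT and its next in KO, and the log2 fold change was -0.05 (SE 0.29). Myh10 had 20018, 12929 and 15911 in KO replicates 1 to 3 and 8465, 12354 and 16556 in WT replicates 1 to 3. The difference lay in pair 1, at 1.24 on the log2 scale, against 0.07 and -0.06 in pairs 2 and 3. The light chains Myl12a and Myl12b had 0.09 (SE 0.30) and 0.20 (SE 0.30). Both light chain values are uncertain, because exons of the annotated gene Gm49909 overlap both on the same strand. How far reads of the 2 related genes can be told apart was not tested. Gm49909, named after its values were seen, had 6998, 6463 and 6706 in KO replicates 1 to 3. In WT replicates 1 to 3 it had 6648, 5221 and 8478, and its log2 fold change was 0.01. Its value was above that of Myl12b in each library, and the reference used for overlaps gives this entry the name Myl12b as well.

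For actin turnover, the filament-severing cofilins Cfl1 and Cfl2 had log2 fold changes of 0.23 (SE 0.36) and 0.35 (SE 0.24), and the monomer-binding profilin Pfn1 had -0.05 (SE 0.33). Cfl1 had 25579, 28016 and 41230 in KO replicates 1 to 3 and 19758, 22278 and 41336 in WT replicates 1 to 3. Replicate 3 was the highest of each group by far, and the KO and WT values of that number were almost the same. Cfl2 was higher in KO in all 3 pairs, with a share of the cofilin level of 6.08% to 12.5% in KO and 5.34% to 12.9% in WT. Snx32 overlaps Cfl1 on the other strand.

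In the branching machinery Actr3, a core subunit of the ARP2/3 complex, had 7304, 6320 and 9713 in KO replicates 1 to 3 and 9547, 9326 and 11251 in WT replicates 1 to 3. It was lower in KO in each same-numbered pair, although KO replicate 3 was above WT replicates 1 and 2. The log2 fold change was -0.39 (SE 0.23). Its partner Actr2 had -0.12 (SE 0.23) and Wasl (N-WASP), an activator of the complex that Cdc42 turns on, had -0.25 (SE 0.24). Wasl was lower in KO in all 3 pairs as well, the second by 0.02 on the log2 scale. Cttn (cortactin), which stabilises the branches, had 0.15 (SE 0.21).

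Counted over the set, 6 members were higher in KO in all 3 same-numbered pairs (Rnd3, Arhgef17, Ppp1r14b, Myl12b, Cfl2 and Evl), and 4 were lower in all 3 (Arhgdib, Limk2, Actr3 and Wasl). Among all tested genes 15.7% were higher and 15.0% lower in all 3. The 6 of 41 and 4 of 41 are thus near or below these shares.

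The ERM proteins tie actin filaments to the plasma membrane, and ROCK is among the kinases that phosphorylate them. Msn (moesin) and Rdx (radixin) had log2 fold changes of -0.04 (SE 0.26) and 0.07 (SE 0.26). Ezr (ezrin, ENSMUSG00000052397) had 20888, 8905 and 1322 in KO replicates 1 to 3 and 18373, 8742 and 10102 in WT replicates 1 to 3. KO replicates 1 and 2 were close to the WT libraries of the same number, and KO replicate 3 was below every other library. The log2 fold change was -0.91 (SE 0.98), and without KO replicate 3 it was 0.21. Ezrin is typical of epithelial and mesothelial cells. The 5 analysed of 8 epithelial and mesothelial markers summed to 6544, 6769 and 1098 in KO replicates 1 to 3 and 9936, 5580 and 5562 in WT replicates 1 to 3, so KO replicate 3 was the lowest in both. The highest of them were Upk3b and Msln, and Cdh1 and Krt18 were listed at 0 in KO replicate 3. Cdh1 was also near 0 in WT replicate 3 (0.79), where Ezr was not low. Krt19 did not share the pattern, with 2140, 554 and 701 in KO replicates 1 to 3 and 1151, 440 and 146 in WT replicates 1 to 3. Their part in the Ezr values was not tested.

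**Figure D4:**
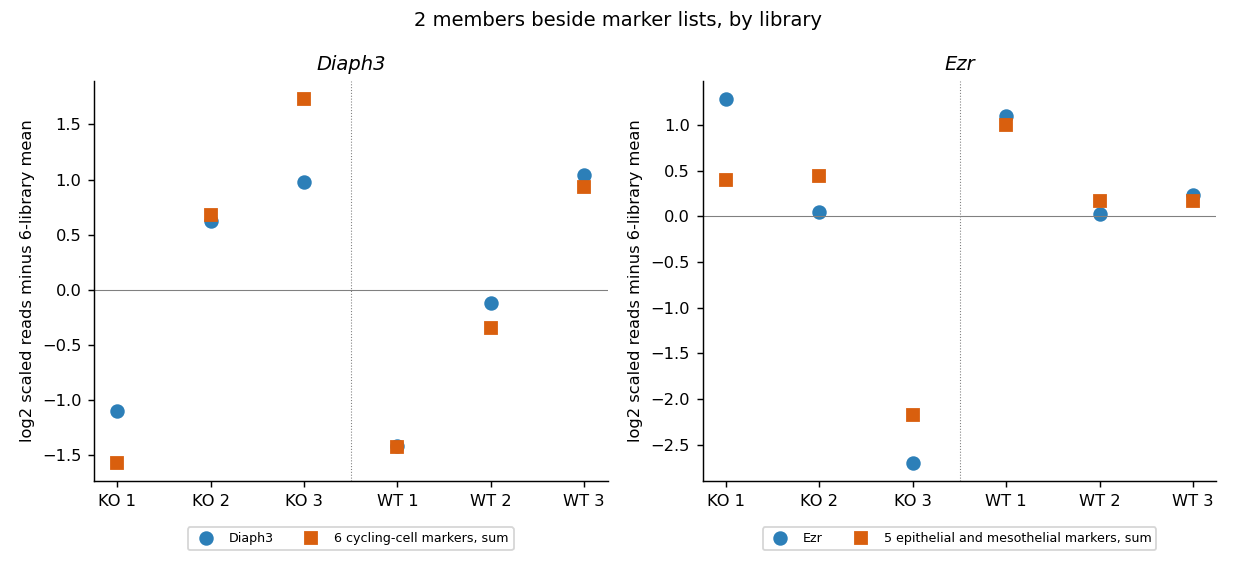
Log2 scaled reads of Diaph3 beside the sum of 6 cycling-cell markers (left) and of Ezr beside the sum of 5 epithelial and mesothelial markers (right), each minus its mean over the 6 libraries, with KO replicates left of WT replicates. Diaph3 and the cycling markers are low in replicate 1 of KO and WT, and Ezr and the epithelial and mesothelial markers are both lowest in KO replicate 3.

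Levels per kilobase spanned a wide range. Averaged over the 6 libraries, Arhgdia had 10967 and Cfl1 10443 scaled reads per kilobase, followed by Myh9 (6616), Pfn1 (5979), Myl12a (5849) and Msn (5073). At the other end stood Enah (86.8), Rock1 (185), Limk1 (185), Evl (193) and Arhgef11 (224). These levels divide by the summed length of all annotated exons, which can exceed the length of the transcripts in use.

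Other genes of the pathway were taken from a list by role, of which 128 of 144 symbols were tested (some symbols are older names of listed genes). In limma 0 of the 128 passed the adjusted p, 5 were under an unadjusted p of 0.05 (3.91%), and the median log2 fold change was -0.01. With the replicate block 13 were (10.2%, against 7.42% of all tested genes). The 5 were the formin Daam2, the GAP Arhgap10, the exchange factor and kinase anchor Akap13, profilin 2 (Pfn2) and the cofilin phosphatase Ssh2. In that order, their log2 fold changes were 3.14 (SE 1.12), 0.65 (SE 0.18), 0.50 (SE 0.20), 0.80 (SE 0.32) and -0.61 (SE 0.22). Of these, 4 were higher and 1 lower in KO, and of the 447 tested genes at this threshold 181 were higher and 266 lower.

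Arhgap10 (GRAF2) had 3466, 4195 and 3950 in KO replicates 1 to 3 and 2408, 2248 and 2722 in WT replicates 1 to 3, with no overlap between the groups. Daam2 had 6042, 3664 and 2030 in KO replicates 1 to 3 and 2211, 315 and 91.8 in WT replicates 1 to 3. It was higher in KO in each pair, but KO replicate 3 was below WT replicate 1. Ssh2 had 595, 454 and 532 in KO replicates 1 to 3 and 807, 708 and 892 in WT replicates 1 to 3, with no overlap. For Akap13 and Pfn2 all KO libraries were above all WT libraries as well. Among the 128 genes KO lay wholly above WT for 6 and wholly below for 3. These shares were 3.91% and 4.51% over all tested genes. As these genes were named for their small p, their lack of overlap adds no support.

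Of the other named pathway genes, Myh11, the smooth muscle myosin heavy chain, had a log2 fold change of -2.63 (SE 1.16). Ppp1r14a, which encodes CPI-17, the inhibitor of myosin phosphatase in contractile smooth muscle, had 10.7, 4.62 and 14.2 scaled reads in KO replicates 1 to 3 and 21.3, 28.0 and 519 in WT replicates 1 to 3. All KO libraries of Ppp1r14a were below all WT libraries, its log2 fold change was -2.69 (SE 1.67), and 1 library, WT replicate 3, held most of its reads. That library also had the highest smooth muscle marker sum. The remaining log2 fold changes were -0.73 (SE 0.43) for Rnd1, 0.24 (SE 0.20) for Rac1, 0.60 (SE 0.31) for Plekhg2, 0.92 (SE 0.40) for Stard13, 0.33 (SE 0.19) for Fhod1, -0.50 (SE 0.29) for Wipf2, 0.28 (SE 0.21) for Arpc1b, -0.60 (SE 0.35) for Stk10 and -0.43 (SE 0.26) for Cd44. None of these passed in limma, where each had an adjusted p of 0.999.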

How the data were processed

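Stranded, poly(A)-selected messenger RNA libraries were sequenced as paired-end reads on an Illumina NovaSeq instrument, per the labels' protocols. STAR, Partek, DESeq2, GRCm39 and mm39 are named, with neither roles nor versions, per the submitters' processing notes, and how alignment, counting and strand were set is not given in the sources used here. Gene starts in the authors' deposited table match GENCODE M21 (GRCm38) for 12341 of 12385 shared genes, so its coordinates are given as GRCm38, with ends 1 base before the deposited stop.

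The deposited per-library values are a scaled signal: estimated reads divided by a library factor, also in the table named for raw counts. In the low values 1 read was worth between 0.71 and 1.19, and 82.5% to 92.4% of the values of at most 50 reads came out whole to within 0.05 reads. The authors' deposited comparison gives a log2 ratio (KO over WT), a p-value and a step-up FDR.

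Because a count test needs counts, none was used here, and limma 3.58.1 (R 4.3.3, statmod 1.5.0) was fitted across all genes to log2(value + 2), with genotype alone, a mean trend and robust priors, for the 12363 of 12389 genes that reached 10 in 3 or more libraries. Tests are two-sided, with Benjamini-Hochberg adjustment over all tested genes at 0.05. The fit was also run on simulated data with the same spread for all genes, no shared replicate effect and large planted changes. That run does not show how the fit performs on changes as small as those of the members. The deviations of KO and WT libraries of the same number from their group means were correlated across genes (0.43, 0.15 and 0.39 for numbers 1 to 3). On that basis the replicate number was taken to pair the cultures in the same-numbered comparisons and in the replicate block. The labels do not define this number. Correlations between libraries of different numbers were not kept for comparison, and deviations from a mean of 3 libraries offset each other. These correlations therefore cannot show that the cultures were paired, and results by pair or block rest on that assumption. The main fit did not use the replicate number, so its SEs, p-values and intervals ignore any pairing. The alternatives were other scalings, filters, pseudocounts and variance priors, the other per-library table, limma-voom, library quality weights, a replicate block and leaving out each library. The members, gene lists and tests were chosen with earlier results of these data known. The text names all members, the targeted gene, 2 genes of the smallest p in each list of other pathway genes and 2 genes of the highest level in each marker list. Beyond that rule, Myh11 in the marker check, Pdgfra, Cdh1, Krt18, Krt19, Cd68 and overlapping genes are named, chosen after their values were seen. Levels per kilobase use the summed exon length of each gene in GENCODE M21.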

Additional observations from a re-analysis of the deposited data

How the results depend on the processing

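No member passed the adjusted p of 0.05 in any of the 20 alternatives, and the smallest adjusted p of a member was 0.126, for Ppp1r14b with library quality weights in limma. The log2 fold change of Evl ran from 0.93 to 1.48 and its limma unadjusted p from 0.00082 to 0.036 and its adjusted p was at least 0.132. Members under an unadjusted p of 0.05 were 1 in the fit reported, 7 with quality weights, 2 with the replicate block and 6 with both, and 1 to 4 when each library was left out in turn. For all genes the counts were 447, then 2284, 917 and 1735 in the same order, and 312 to 692. As shares, 17.1% of members and 18.5% of all genes were under it with quality weights, 4.88% and 7.42% with the block, 14.6% and 14% with both, and 9.76% and 4.42% without KO replicate 3 (4 members). For the other RhoA and actin genes they were 5, then 34, 13 and 24, with 3 when neither trend nor robust fitting was used, and 2 to 11. Their share was 26.6% with quality weights, 18.8% with weights and block, and 8.59% without WT replicate 1, where all genes had 18.5%, 14% and 3.75%. Without KO replicate 3 it was 8.59% too. Genes passing the adjusted p were 30 with quality weights, 5 with quality weights and the replicate block, and 0 to 1 with a library left out. The weights were estimated without reaching the convergence tolerance. The replicate block alone gave 0 genes passing the adjusted p, as in the fit reported. Members under the unadjusted p with quality weights were Ppp1r14b, Vasp, Evl, Actr3, Rnd3, Arhgef17 and Ppp1r12b. Both weights and block gave Evl, Ppp1r14b, Rnd3, Actr3, Vasp and Diaph3. Members under the unadjusted p without KO replicate 1 were Evl and Rhob, without KO replicate 3 Rnd3, Vasp, Evl and Actr3, and without WT replicate 3 Ppp1r14b and Evl. The sign of 19 members held in all 20 alternatives. Where it turned, total scaling gave 0.0081 for Rhoc, 0.017 for Cdc42 and 0.000552 for Arhgdia, and quantile normalization gave 0.012 for Rhoc, 0.028 for Cdc42, 0.035 for Arhgdia, 0.12 for Myh9, 0.016 for Pfn1 and 0.038 for Msn. Quality weights gave 0.023 for Rhoc, 0.12 for Arhgdia, -0.14 for Rock1, -0.098 for Ppp1r12c, -0.038 for Ppp1cb, 0.043 for Myh9, 0.20 for Pfn1, -0.61 for Enah, 0.011 for Ezr and -0.11 for Rdx. With the replicate block and quality weights the values were 0.037 for Rhoc, 0.025 for Cdc42, -0.044 for Ppp1r12c, 0.035 for Pfn1 and -0.19 for Enah. Leaving out 1 library turned the sign of 22 members, with ranges of -0.025 to 0.17 for Rhoa, -0.20 to 0.19 for Rhoc, -0.26 to 0.19 for Cdc42, -0.30 to 0.028 for Arhgef12, -0.027 to 0.28 for Arhgap1, -0.20 to 0.15 for Arhgdia, -0.68 to 0.026 for Arhgdib, -0.096 to 0.24 for Rock1, -0.29 to 0.96 for Diaph3, -0.12 to 0.17 for Ppp1r12a and -0.62 to 0.14 for Ppp1r12b. The other ranges were -0.12 to 0.20 for Ppp1r12c, -0.10 to 0.21 for Ppp1cb, -0.20 to 0.11 for Myh9, -0.052 to 0.35 for Myl12a, -0.041 to 0.43 for Myl12b, -0.28 to 0.26 for Pfn1, -0.37 to 0.82 for Enah, -0.23 to 0.058 for Actr2, -1.77 to 0.21 for Ezr, -0.22 to 0.082 for Msn and -0.15 to 0.22 for Rdx. With a library left out, values whose sign held still moved by over 1.5 times for some members, with ranges of 0.34 to 0.80 for Rnd3, 0.12 to 0.40 for Arhgef1, 0.032 to 0.17 for Arhgef2, -0.35 to -0.12 for Arhgef11, 0.0023 to 0.65 for Rock2, 0.011 to 0.71 for Limk1, -0.39 to -0.061 for Limk2, -0.26 to -0.022 for Diaph1, 0.16 to 0.65 for Myh10, 0.025 to 0.56 for Cfl1, 0.28 to 0.61 for Vasp, -0.56 to -0.25 for Actr3, -0.37 to -0.057 for Wasl and 0.048 to 0.23 for Cttn. Quality weights also moved values whose sign held, for example to -0.87 for Ppp1r12b, 0.030 for Limk1, -0.040 for Arhgdib and -0.029 for Limk2. The causes were not tested. With 3 cultures a group, no single-gene exact permutation test can go below p = 0.1. The lowest value of a member stands for about 163 estimated reads, and counting error was not set against the spread between libraries.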
